A study of Mus musculus with 2 samples.

Results

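Transcripts made of a single exon from protein-coding genes were examined in long-read RNA sequencing of heart tissue, in which each read can cover a whole cDNA and so shows whether introns were removed. They were the rows of the deposited count tables classed as known (matched to an annotated transcript), with 1 exon, whose gene is typed protein-coding in the deposited models and lies outside the mitochondrial chromosome. Of 16779 known transcripts listed with reads in either library, 580 from 574 genes met this rule, of 5092 such transcripts annotated in GENCODE M21. Replicate 1 listed 441 of them, replicate 2 listed 475, and 336 were listed in both. They fall into 2 kinds that are described apart: 271 transcripts of 269 intronless genes, in which no annotated transcript has an intron, and 309 transcripts of 305 spliced genes, in which other annotated transcripts are spliced. Of the transcripts of spliced genes, 211 are annotated as retained intron, 85 as protein coding, 12 as processed transcript and 1 as TEC, a type for models still under review.

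The series is 1 group of 2 libraries, replicate 1 and replicate 2, from the heart of adult female B6CASTF1/J mice, a hybrid strain, aged 18 to 20 months, with no treatment named. Each library was made from 2 µg of RNA. The labels give the libraries separate biological samples but a shared donor entry, so the number of animals is not known and a difference between the libraries may be technical. The p-values given below set it against counting error alone and hold no estimate of the spread between samples. Replicate 1 held 630211 mouse reads and replicate 2 held 664319, of which 573712 and 602775 belonged to protein-coding genes outside the mitochondrial chromosome. Levels are given as reads, or as CPM, here reads per 1000000 mouse reads after TMM scaling of the library sizes. Neither is divided by length, since a long read stands for 1 cDNA. A read was worth 1.61 CPM in replicate 1 and 1.48 CPM in replicate 2. Errors after ± are SDs over both libraries (n = 2). Ranges in brackets are 95% Clopper-Pearson intervals, or intervals of a ratio derived from them, and take in no error but that of counting.

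Most mammalian genes are interrupted by introns that are spliced out before the RNA leaves the nucleus. Genes without introns belong to a few families, such as histones, many receptors and early response transcription factors, or arose by retrotransposition, in which a spliced mRNA is copied back into the genome. A single-exon transcript of a spliced gene can be an unspliced RNA, an RNA that keeps 1 of its introns, or an alternative start or end that needs no splicing. Polyadenylated RNAs usually carry a signal, AATAAA or ATTAAA, shortly before their 3′ end, whereas replication-dependent histone mRNAs end after a short stem-loop and usually carry no poly(A) tail.

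The 3′ ends of 6 abundant members that hold the poly(A) signal are shown here, with the signal in capitals, read from the GENCODE M21 transcripts (mm10). Not all abundant members hold it: Gm11273-201, Jund-201, Ftl1-ps1-202 and Kcnj11-205 have neither form in their last 40 bases. Of the 6 shown, the first 3 are intronless genes, and the others are single-exon transcripts of spliced genes.
Cebpb-201, chr2:167690376-167690405, plus strand: tgaagacattttAATAAActtttttggaga
0610012G03Rik-201, chr16:31947050-31947079, minus strand: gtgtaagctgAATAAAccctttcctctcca
Hist1h4h-201, chr13:23531476-23531505, plus strand: ccacattttcttATTAAAagagcgaacatg
H2afj-201, chr6:136810045-136810074, plus strand: aggacaAATAAAgaatatattacaaatctg
Trdn-204, chr10:33200340-33200369, plus strand: ctagaataaagacAATAAAatacagaaatg
Ss18l2-207, chr9:121712791-121712820, plus strand: aaatatttattAATAAAacagatcccacgg

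Histone members differ in what follows the stem-loop, in capitals below. In Hist2h2aa1 and Hist2h2aa2, which share this sequence, the annotated transcript stops 35 bases after it, whereas in Hist1h1c and Hist3h2a it ends 840 and 1643 bases after it, with a poly(A) signal in the last 40 bases.
Hist2h2aa1-201, chr3:96246025-96246054, plus strand: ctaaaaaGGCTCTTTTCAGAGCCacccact
Hist2h2aa2-201, chr3:96239777-96239806, minus strand: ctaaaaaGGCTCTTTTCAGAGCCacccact
Hist1h1c-201, chr13:23739505-23739534, plus strand: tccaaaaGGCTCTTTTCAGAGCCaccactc
Hist3h2a-201, chr11:58955165-58955194, plus strand: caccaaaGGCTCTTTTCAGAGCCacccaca

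The 3 abundant retained-intron models below hold splice sites that other transcripts of the same gene use, whereas 116 of the 211 listed hold no whole intron. Capitals mark the first 2 intron bases of a donor site or the last 2 of an acceptor site, all of them inside a single exon of the named model. Ss18l2-207 holds both introns of the 3-exon Ss18l2-201 whole, at 167 and 1849 bases, and Egfl7-213 holds the 137-base intron 9 of Egfl7-202. Each base of Ss18l2-207 is nonetheless exonic in some spliced transcript of the gene. Trdn-204 begins within the 4037-base intron 8 of Trdn-202 and holds only its acceptor.
Ss18l2-207, donor of intron 1, chr9:121710467-121710496, plus strand: agcggGTgagcgaccgagagccggagattt
Ss18l2-207, acceptor of intron 1, chr9:121710619-121710648, plus strand: cttcctcgcccgtctttcAGctcctggagg
Ss18l2-207, donor of intron 2, chr9:121710706-121710735, plus strand: agtgcgtccaGTaagtgccactggggacgc
Ss18l2-207, acceptor of intron 2, chr9:121712545-121712574, plus strand: tttctgtttttcacccatAGgtatcagcat
Egfl7-213, donor of intron 9, chr2:26592271-26592300, plus strand: ctggggtcctGTgagtcccacaagacacca
Egfl7-213, acceptor of intron 9, chr2:26592398-26592427, plus strand: tttttcctctcctgccctAGgctcctgcaa
Trdn-204, acceptor of intron 8, chr10:33200143-33200172, plus strand: ctttctctctattctgtcAGatcagtatgc

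Gm11273, the intronless gene with the most reads, is shown against Cox5b, because the letters that tell them apart are few. Its 390 bases, an open reading frame with its stop codon, matched the 4-exon Cox5b-204 without a gap and across 3 exon junctions, with 387 bases identical. The 3 differences were C114T, A213G and G243A, with the base of Cox5b first, the base of Gm11273 last and positions counted from the first base of Gm11273. All of them left the encoded amino acid as it was. The windows around the second and the third difference, with the base that differs in capitals, read as follows.
Gm11273-201, chr13:21501191-21501220, minus strand: ccaaaggcagcttcGggcaccaaggaagac
Cox5b-204, chr1:36692472-36692501, plus strand: ccaaaggcagcttcAggcaccaaggaagac
Gm11273-201, chr13:21501161-21501190, minus strand: cctaatctagtcccAtccatcagcaacaag
Cox5b-204, chr1:36692502-36692531, plus strand: cctaatctagtcccGtccatcagcaacaag

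Together the known single-exon transcripts held 5438 reads in replicate 1 and 5800 in replicate 2, which was 0.948% [0.923–0.973] and 0.962% [0.938–0.987] of the reads of protein-coding genes (0.955% ± 0.010). Intronless genes accounted for 3606 and 3845 of these reads and spliced genes for 1832 and 1955. For both kinds the intervals of the share overlapped between the libraries. Reads were concentrated in few members: the 10 most abundant transcripts held 40.2% and 43.3% of the reads of intronless members in replicates 1 and 2, and 57.5% and 58.2% of those of spliced genes. The median member had 6 reads over both libraries among intronless genes and 2 among spliced genes, and 67 of 271 and 134 of 309 rested on 1 read.

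Reads of intronless genes went almost wholly to their known transcript. In the 113 intronless genes with at least 10 reads over both libraries, 99.8% [99.5–99.9] of reads in replicate 1 and 99.5% [99.2–99.7] in replicate 2 lay in a known single-exon transcript (99.6% ± 0.2), and in 102 genes it was every read. In the 7061 spliced genes with at least 10 reads, known transcripts of 2 or more exons held 68.4% ± 1.0 of reads. Known single-exon transcripts held 0.312% ± 0.001. A further 17.7% ± 1.9 were incomplete splice matches, models that match an annotated transcript only in part. Some of these have 1 exon and so hold no intron. The genomic class, which the annotation software gives to reads that overlap a gene without matching its splicing, held 8.64% ± 0.83. These shares describe how models were assigned as well as the RNA, since a gene without introns offers a read nothing to match but its exon, and the sources used here do not give how far read ends had to match.

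Of these 113 genes, the lowest share in the known transcript was that of Lrrc10, which encodes a leucine-rich repeat protein of heart muscle: 12 of 12 reads in replicate 1 and 50 of 60 in replicate 2, which left 9 reads in single-exon incomplete matches and 1 in a genomic model of 2 or more exons. Dnajc30, a mitochondrial J-domain protein, had 23 of 26 reads in replicate 1 and 26 of 27 in replicate 2 in its known transcript, with all 4 others of the genomic class. Paqr9, of the progestin and adipoQ receptor family, had 32 of 32 and 37 of 40, and Gas1, a membrane protein first described in growth-arrested cells, 27 of 28 and 18 of 20 over its 2 known transcripts. In Paqr9, 2 of the other reads were in a model classed as having a new splice junction, the only such reads in these 113 genes. No genomic model of an intronless gene had a single exon. Among the 38 intronless genes with at least 50 reads, 30 had every read in the known transcript, Jund, Cebpb and 0610012G03Rik among them.

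Single-exon reads as such were not rare in spliced genes. In spliced genes with no annotated single-exon transcript, 16.5% ± 0.6 of reads lay in models of 1 exon, 84127 reads in replicate 1 and 92362 in replicate 2, all classed as incomplete matches or genomic. In all spliced genes that have a single-exon transcript annotated, listed or not, the share in models of 1 exon was 16.6% ± 0.8, of which known transcripts took 22.5% ± 1.5, incomplete matches 17.2% ± 1.9 and the genomic class 60.3% ± 3.3. In the 305 genes whose single-exon transcript was listed, known ones took 77.7% ± 1.5 of the single-exon reads and 17.6% ± 0.2 of all reads. The last set was chosen by having such reads, so its share describes these genes and is no comparison.

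**Figure D1:**
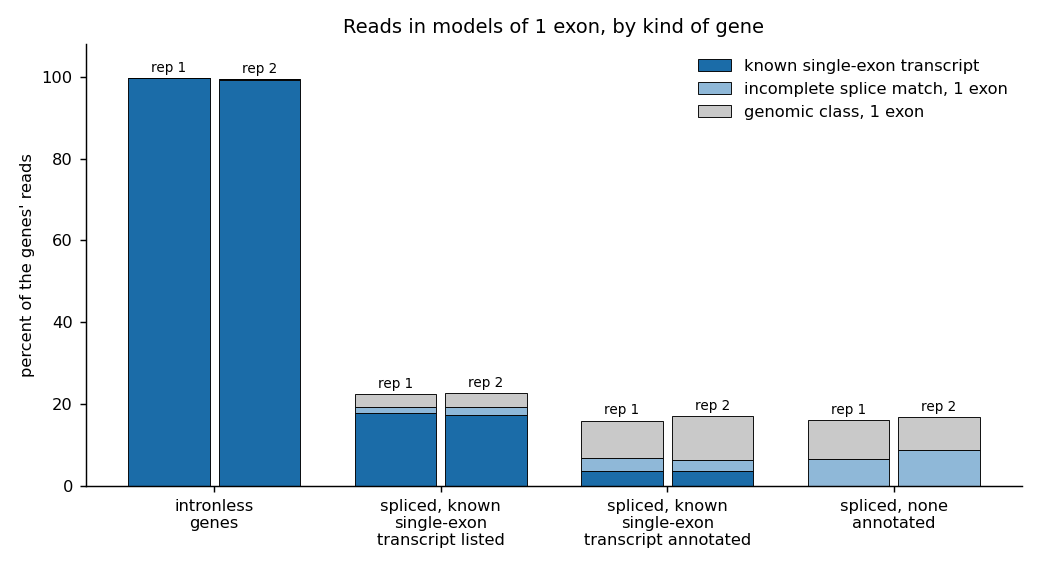
Percent of the reads of protein-coding genes in models of 1 exon, by kind of gene and library, stacked by model class (known single-exon transcript, incomplete splice match, genomic class). Intronless genes reach nearly 100% in known transcripts, whereas spliced genes with no annotated single-exon transcript have 16.5% of reads in 1-exon models and none in known ones.

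Among intronless genes, Gm11273 had the most reads, 416 in replicate 1 and 400 in replicate 2 (632 ± 54 CPM). It is annotated as protein coding at chr13:21501029-21501418 on the minus strand and is the Cox5b copy shown above. Cox5b, which encodes a subunit of cytochrome c oxidase of the respiratory chain, had 1526 and 1593 reads. Values of Gm11273 are uncertain, as are those of every copy named below, because the counting could give reads of a parent to its copy or the reverse, and the sources used here do not say how reads that match 2 places equally well were assigned.

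Members near-identical to a spliced gene held a large part of the intronless reads. Of 271 intronless members, 36 matched a transcript of 2 or more exons from another protein-coding gene at 95% identity or more over at least 80% of their length. These held 26.3% and 24.3% of the intronless reads in replicates 1 and 2. Gm11273 alone held 416 and 400 of their 947 and 933 reads. Rps27rt, a copy of the small-subunit ribosomal protein gene Rps27, had 106 and 96 reads against 372 and 431 for Rps27. Sap18b, a copy of Sap18 (a partner of histone deacetylase complexes), had 62 and 66 against 81 and 60. Rpl10-ps3 stood the other way round, with 94 and 96 reads against 9 and 12 for Rpl10, a large-subunit ribosomal protein gene. For 2 of the 36 the match is no copy but an overlapping gene on the same strand, Ndor1 for AL732309.1 and Aars for Exosc6. AL732309.1, with 6 and 6 reads against 1 and 1 for Ndor1, was the only other of the 36 to exceed its match in both libraries. At the other end, 17 of the 36 had under 10% of the reads of their match in both libraries, such as Gm10053 with 10 and 14 reads against 1081 and 1097 for Cycs, which encodes cytochrome c.

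Some intronless members are near-identical to each other. Rtl8a, from a family derived from a retrotransposon Gag gene, had 38 reads in replicate 1 and 53 in replicate 2, and its 99.6% identical neighbour Rtl8b had 32 and 39. The neighbouring H2A genes Hist2h2aa1 and Hist2h2aa2 had 53 and 53 reads and 62 and 39 reads, and reads could not be told apart over the stretch they share. Counting every kind of copy, 44 of 271 intronless members and 8 of 309 members of spliced genes had a near-identical match.

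Gapdh, a glycolysis gene, is named here after its value was seen. Its retained-intron transcript Gapdh-213 had 9 reads in replicate 1 and 5 in replicate 2, while the whole gene had only 13 and 12. The intronless copy Gm10358 had 5 and 3. Beside them, 16 genes annotated as pseudogenes and at least 95% identical to Gapdh-201 over at least 80% of their length held 968 and 1013 reads, Gm12671, identical to Gapdh-201 over its whole length, 390 and 388 of them. Which of these loci the reads came from was not tested.

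On a list of AP-1 subunits and immediate early genes, the latter induced within minutes of a stimulus, several intronless genes had reads. Jund, the AP-1 subunit JunD, had 212 reads in replicate 1 and 198 in replicate 2 (318 ± 33 CPM). Ier2 had 23 and 18 reads, Ier5 17 and 19, and Jun 13 and 20. Junb-201, counted among spliced genes because another annotated transcript has an intron, had 11 and 18 reads, every read of its gene. Zfp36-202, of a gene whose protein destabilises AU-rich mRNAs, had 8 and 8. Of this list of AP-1 subunits and immediate early genes, 5 of 5 intronless genes had reads.

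Other abundant intronless genes have varied known roles. Fem1a, a substrate receptor of a cullin ubiquitin ligase, had 104 reads in replicate 1 and 89 in replicate 2 on a 6801-base model. Pcbp1, which binds cytosine-rich RNA, had 79 and 95, and Sf3b5, a subunit of the spliceosome's SF3b complex, had 78 and 64. Fahd1, a mitochondrial hydrolase family enzyme, had 61 and 71 reads, Sephs2, which makes the selenium donor for selenoproteins, 61 and 54, and Rraga, a Rag GTPase upstream of mTORC1, 38 and 48. The intervals of the ratio between the libraries included 1 for each of these 6. Imp3, a component of the U3 small nucleolar particle of ribosome assembly, had 43 and 47 reads, and Cenpb, which binds centromeric repeats, had 50 and 37. The uncharacterised 0610012G03Rik had 174 and 173.

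Reads of histone genes lay mostly in a few of them. Of 60 intronless replication-dependent histone genes 14 had reads, beside 269 of all 1331 annotated intronless genes. Of the 14, 4 held most of the reads: Hist1h4h (84 and 87 reads in replicates 1 and 2), Hist2h2aa1, Hist2h2aa2 and Hist1h1c (26 and 22). Hist2h2aa2 had a ratio of 1.72 [1.14–2.64] between replicate 1 and replicate 2, which was not called after adjustment. The other 10 had at most 2 reads in either library. On the list of linker and variant histones, H2afj-201, of a spliced gene, had 67 and 82 reads. The intronless Hist3h2a had 30 and 25, H1f0 23 and 24, and H2afx 12 and 11. Hist3h2a is on that list although it carries the stem-loop shown above. Of the 15 listed transcripts of intronless histone genes named Hist1 to Hist4, 8 hold the stem-loop GGCTCTNNNNAGAGCC, and 6 of these run more than 50 bases past it; among those not listed, 25 of 48 hold it and 13 of the 25 run past it. Of all other annotated single-exon transcripts, 3 of 5029 hold it.

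Kcna5, a voltage-gated potassium channel of the heart, had 13 reads in replicate 1 and 15 in replicate 2 and was the only intronless gene with reads among 3 on the potassium channel list. The β1-adrenergic receptor Adrb1, the main adrenergic receptor of heart muscle, had 13 and 5 reads in Adrb1-201, a single-exon transcript of a spliced gene. The intronless Fzd1, a Wnt receptor, had 8 and 4. Of 17 intronless receptor genes on the list 9 had reads, most of them under 5 in each library, Fzd7 with 4 and 7. Of the vessel list, Cldn5, a tight-junction protein of endothelium, had 33 and 24 reads and Thbd, which encodes thrombomodulin, had 22 and 29. Among developmental factors, 10 of 30 intronless genes had reads, and beside Cited4 none exceeded 9 in either library: Sox4 had 9 and 2, Nrarp, a Notch pathway inhibitor, 4 and 7, and Foxc1 2 and 4. The inducible chaperone genes Hspa1b and Hspa1a had 7 and 12 and 4 and 7 reads. They are 99.23% identical to each other over 78.49% and 74.05% of their lengths, under the 80% set for a near-identical match. The split of reads between them is therefore uncertain. The GTPase gene Rhob had 11 and 16 reads, and the ubiquitin ligase adaptor gene Klhl9 15 and 15. Of 17 intronless testis retrogenes 2 had reads, Cstf2t with 23 and 16 and Tssk1 with 0 and 1. Of 3 intronless genes on the mitochondrial and translation list 2 had reads, Hnrnpa0 with 8 and 6 and Mars2 with 3 and 2. No read in a known single-exon transcript was listed for 107 intronless olfactory receptor genes and 115 intronless vomeronasal and taste receptor genes. The same held for intronless genes of 2 other lists, 17 type I interferon genes and 53 keratin-associated and cornified envelope genes. It also held for the 925 olfactory receptor genes with both spliced and single-exon transcripts annotated, whose reads in other models were not counted here.

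**Figure D2:**
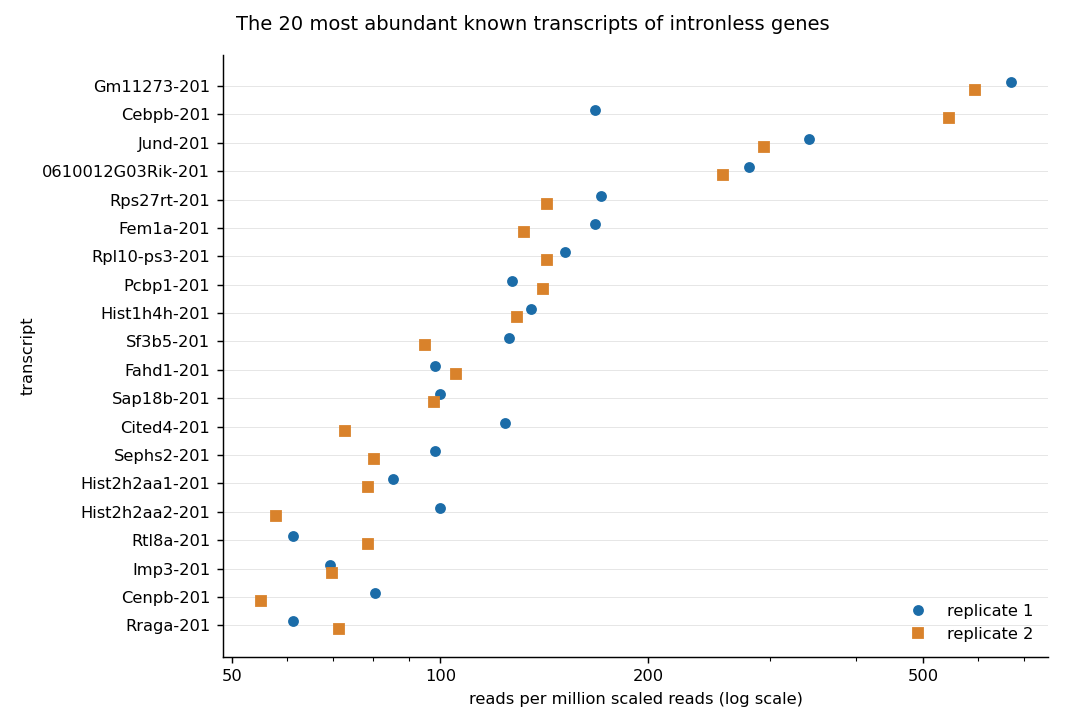
CPM (log axis) of the 20 most abundant known transcripts of intronless genes, circles for replicate 1 and squares for replicate 2. Gm11273 is highest in both libraries, and Cebpb shows the widest gap, 167 against 545 CPM.

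Single-exon transcripts of spliced genes were of a few abundant kinds. Retained-intron transcripts held 1013 reads in replicate 1 and 980 in replicate 2 (52.7% ± 3.7 of the reads of these members) and coding transcripts 809 and 960 (46.6% ± 3.5). In the 142 members whose gene reached 10 reads in both libraries, the single-exon transcript took a median of 4.99% of the gene's reads. Coding ones had a median of 47.2% (n = 25) and 7 of these held every read of the gene, whereas retained-intron ones had a median of 4.17% (n = 114) and 9 took at least 50%.

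In several cases coding single-exon transcripts held most or all reads of the gene. Kcnj11-205 encodes the pore subunit of the ATP-sensitive potassium channel, which couples membrane potential to metabolism in heart muscle, and had 125 of 129 reads in replicate 1 and 161 of 165 in replicate 2. Ftl1-ps1-202, a copy of the ferritin light chain gene Ftl1, had all 247 and 304 reads of its gene, against 264 and 350 for the spliced Ftl1, to which it is 99.6% identical over 97.0% of its length. H2afj-201, a histone H2A variant, had all 67 and 82 reads of its gene although a 2-exon transcript is annotated. Smim10l1-201 held 28 of 33 and 42 of 45 reads, and Trappc5-202, a subunit of a vesicle tethering complex, 18 of 32 and 16 of 28. Ccdc85b-201 had 19 and 15 reads. The uncharacterised 2610001J05Rik-203 had 40 of 43 and 39 of 44 reads. Eno1b-202, a copy of the enolase gene Eno1, had all 11 and 30 reads of its gene, against 67 and 122 for Eno1, and Prob1-201 had 25 and 13.

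Trdn-204 was the most abundant retained-intron transcript. Trdn encodes triadin, a protein of the sarcoplasmic reticulum junction that anchors calsequestrin at the calcium release channel. Trdn-204 had 221 reads in replicate 1 and 225 in replicate 2, which was 40.8% and 39.3% of the reads of the gene. Models of 2 or more exons held 241 and 240 reads in all, of which the known Trdn-202 had 27 and 20, the known Trdn-208 36 and 61, and incomplete matches 160 and 141. A further 78 and 105 reads of Trdn were single-exon models of the genomic class. Of the bases of Trdn-204, 87.6% lie in introns of the spliced transcripts, but its 3′ end lies 4 bases from that of Trdn-202, and from the acceptor shown above onward it follows the last exon of Trdn-202. The tables give the length of the annotated model and not of the read, so how many of these reads reach into the intron was not measured.

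Ss18l2-207 had 225 reads in replicate 1 and 215 in replicate 2, against 103 and 101 for the fully spliced Ss18l2-201 and 30 and 24 for Ss18l2-203, which keeps 1 intron. The single-exon transcript thus took 61.8% and 62.7% of the gene's reads. Egfl7-213 had 36 and 33 reads, against 15 and 16 for the 10-exon Egfl7-202; Egfl7 encodes a factor secreted by endothelial cells, and the model overlaps Gm20532 on the same strand. Usp19-211, of a deubiquitinating enzyme gene, had 18 of 46 and 20 of 37 reads. Iqsec1-208, of a gene for an Arf exchange factor, had 20 of 25 and 16 of 20 reads, and all its bases are exonic in spliced transcripts. Pgp-202, of the phosphoglycolate phosphatase gene, held a 92-base intron and had 29 and 16 reads, against 80 and 60 for the spliced Pgp-201. Cspp1-223, of a centrosome and spindle protein gene, had 27 of 27 and 22 of 23 reads and lies opposite Cops5 on the other strand.

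Some retained-intron models held only a small part of the reads of their gene. Myl6-209, of the nonmuscle and smooth-muscle myosin light chain gene, spans 18 introns, counted over all annotated transcripts, and had 9 reads in replicate 1 and 20 in replicate 2, of 165 and 187 for the gene. Fabp4-202, of the fatty acid binding protein of adipocytes and capillary endothelium, spans 3 and had 6 and 23 reads, of 357 and 619. Atp5l-204, on a 6310-base model, had 6 and 9 reads, of 1155 and 1100 for this ATP synthase subunit gene. Of the 211 retained-intron models listed, 95 hold at least 1 whole intron, and these held 55.5% and 53.7% of retained-intron reads in replicates 1 and 2. Ss18l2-207 alone held 225 and 215 of their 562 and 526 reads.

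**Figure D3:**
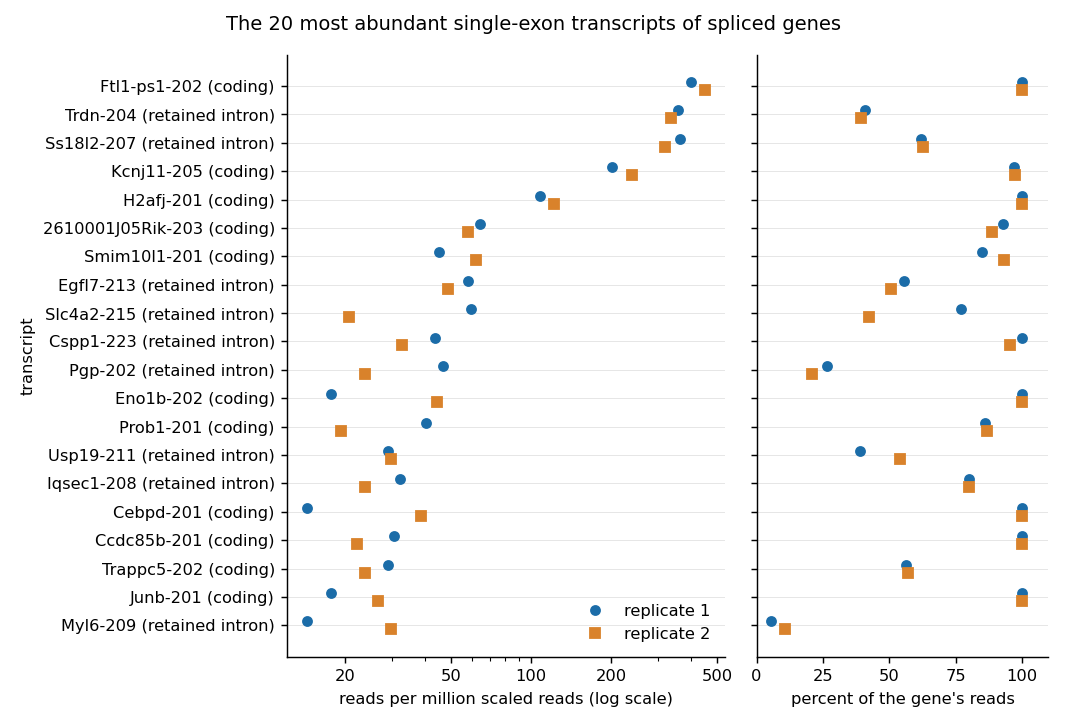
Left, CPM (log axis) of the 20 most abundant single-exon transcripts of spliced genes, with the annotated type in brackets; right, the percent of the gene's reads in that transcript. Circles are replicate 1 and squares replicate 2. Coding transcripts such as Ftl1-ps1-202 and H2afj-201 lie at 100% of their gene, Trdn-204 near 40% and Myl6-209 under 11%.

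Listed members differed from annotated single-exon transcripts without reads in their 3′ ends. A poly(A) signal, AATAAA or ATTAAA, stood within the last 40 bases in 65.3% of listed intronless transcripts (177 of 271) and in 35.2% of those not listed. For coding transcripts of spliced genes it was 69.4% of listed and 9.12% of others, and for retained-intron transcripts 42.2% and 16.6%. Listed known transcripts with 2 or more exons of protein-coding genes had it in 69.4%, and other windows of 40 bases in the annotated single-exon transcripts in 3.14%. The sequence was searched in the direction of the transcript only, and a match is a description of letters and not a mapped end. The unlisted transcripts include those of olfactory receptor genes (107 intronless and 925 spliced) and of vomeronasal and taste receptor genes (115 and 132). How far these families account for the differences here and in the annotated ends below was not tested.

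Listed and unlisted transcripts also differed in their annotated ends. Of transcripts with a coding sequence, 40.4% of unlisted intronless ones and 57.9% of unlisted coding ones of spliced genes have no annotated UTR at all, against 5.93% and 3.53% of listed ones, so their last 40 bases are coding. The median length was 2048 bases for listed intronless transcripts and 984 for unlisted ones, with a median coding length of 858 and 891. Among retained-intron models, 36.5% of listed ones end within 50 bases of the 3′ end of a spliced transcript of the gene, against 8.41% of unlisted ones. These listed models held 71.9% of retained-intron reads in replicate 1 and 74.7% in replicate 2, or 728 and 732 reads. Of these reads, Trdn-204 held 221 and 225, and Ss18l2-207 held 225 and 215.

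**Figure D4:**
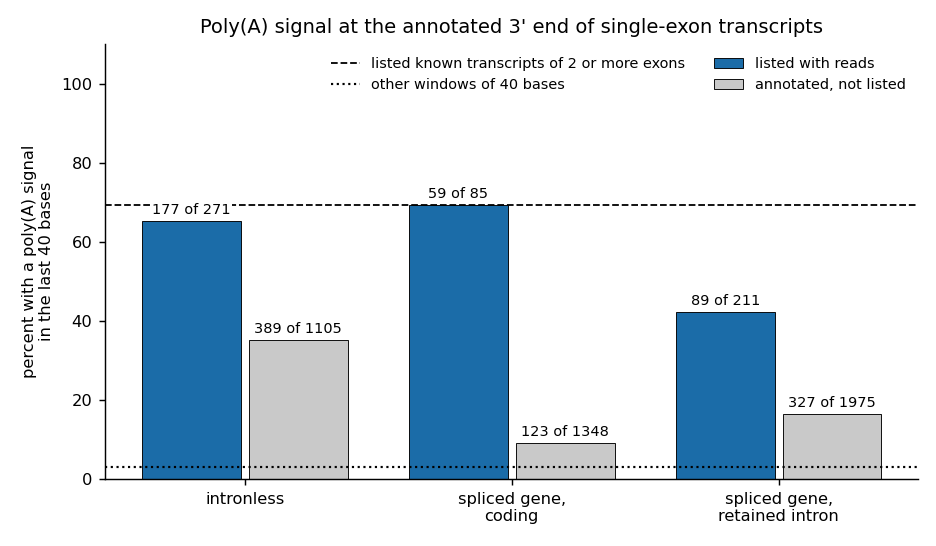
Percent of annotated single-exon transcripts with AATAAA or ATTAAA in the last 40 bases, for those listed with reads and those not listed, by kind, with counts above the bars. The dashed line marks listed known transcripts of 2 or more exons (69.4%) and the dotted line other windows of 40 bases (3.14%). Listed members lie above unlisted ones of the same kind in all 3 kinds. The unlisted ones include those of olfactory, vomeronasal and taste receptor genes.

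Between the libraries, few single-exon transcripts differed. Of 175 with at least 10 reads, 3 were called at an adjusted p of 0.05 in a two-sided exact binomial test that set reads against scaled library sizes, with Benjamini-Hochberg adjustment over 5877 known transcripts. That is 1.71%, beside 1.92% of all transcripts tested, and 19 of the 175 had an unadjusted p under 0.05. Higher in replicate 1 was 1 of them, beside 0.885% of all transcripts, and 2 were higher in replicate 2, beside 1.04%. By gene, 2 of 113 intronless genes were called, beside 2.07% of 7545 annotated genes (0.861% higher in replicate 1 and 1.21% higher in replicate 2). Both counts lie near the background. The test sets 1 library against 1 other and says nothing of conditions.

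Cebpb, which encodes the transcription factor C/EBPβ of fat cell differentiation and inflammatory responses, had the smallest adjusted p. It had 104 reads in replicate 1 and 367 in replicate 2, or 167 and 545 CPM, every read in Cebpb-201 (chr2:167688915-167690418, plus strand). The level in replicate 1 was 0.307 times that in replicate 2 [0.245–0.383], adjusted p = 2.78e-28 by the exact binomial test. Its relatives did not pass the test or had too few reads for it: Cebpd-201 had 9 reads in replicate 1 and 26 in replicate 2 (adjusted p = 0.234, exact binomial test) and Cebpa-201 had 0 reads in replicate 1 and 5 in replicate 2.

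Lrrc10-201 (chr10:117045341-117046768, plus strand) had 12 reads in replicate 1 and 50 in replicate 2, a level 0.260 times as high in replicate 1 [0.126–0.496] with an adjusted p of 4.46e-04 by the exact binomial test. With all read classes the gene had 12 and 60 reads, a ratio of 0.217 [0.106–0.407]. Hspb3, a small heat shock protein of muscle and the other intronless gene with reads on the heart muscle list, had 4 and 6.

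Slc4a2-215, a retained-intron transcript of the anion exchanger gene Slc4a2, had 37 reads in replicate 1 and 14 in replicate 2, 2.87 times as high in replicate 1 [1.51–5.74] with an adjusted p of 0.0347 by the exact binomial test. With DESeq2 size factors, or with no minimum of reads, it was not called. As a share of its gene it held 37 of 48 reads in replicate 1 and 14 of 33 in replicate 2, which did not pass Fisher's exact test after adjustment (p = 0.00224, adjusted p = 0.907). This model overlaps Fastk on the opposite strand. Such overlaps were common: 84 of 271 intronless members and 74 of 309 of spliced genes lie opposite another gene, and the sources used here do not say whether strand was used in counting. The spliced Slc4a2-201 had 3 and 5 reads.

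Cited4, a coactivator partner of CBP and p300, had 77 reads in replicate 1 and 49 in replicate 2, 1.70 times as high in replicate 1 [1.18–2.49] but with an adjusted p of 0.111 by the exact binomial test; it was called only when transcripts under 50 reads were left out. Among the genes of single-exon transcripts of spliced genes, 2 of 209 were called by gene (0.957%, beside 2.07% of all genes tested), Fabp4 (357 and 619 reads, adjusted p = 1.54e-10 by the exact binomial test) and Arrdc2 (2 and 43 reads, adjusted p = 4.03e-08 by the same exact test). The single-exon Fabp4-202 did not pass by itself (adjusted p = 0.143, exact binomial test), and Arrdc2-207, with 0 reads and 1 read, was not tested. In shares of the gene's reads, Fisher's exact test called 0 of 145 members tested, beside 0.0864% of all 8103 transcript shares, with 5 at an unadjusted p under 0.05.

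Markers of several cell types differed between the same libraries. The 5 adipocyte markers, all with reads, summed to 46.7 CPM in replicate 1 and 600 CPM in replicate 2, and the 6 atrial markers, all with reads, to 1889 and 4457 CPM. Airway epithelium markers summed to 0 and 637 CPM, with reads for 4 of 5 and Sftpc at 0, while the 5 erythroid markers, all with reads, stood the other way at 30391 and 11784 CPM. The 10 cardiomyocyte markers, all with reads, summed to 55592 and 52050 CPM, and Nppa is on both this list and the atrial list. Of the 10, 5 were called higher in replicate 1 and 1 in replicate 2, beside 0.861% and 1.21% of all annotated genes tested. Called higher in replicate 1 were also all 5 erythroid markers. Higher in replicate 2 were 4 adipocyte, 4 atrial, 4 airway, 1 fibroblast and 1 macrophage marker. None of these other lists had calls in both directions. The lymphocyte markers summed to 3.22 and 29.7 CPM, with reads for 5 of 6 and Cd3e at 0, the 7 macrophage markers, all with reads, to 267 and 389 CPM, and the 7 fibroblast markers, all with reads, to 402 and 558 CPM. The 8 endothelial and 7 mural markers, all with reads, had 336 and 328 CPM and 291 and 278 CPM, and the skeletal muscle markers summed to 1.61 and 4.45 CPM, with Myh4, Myh2, Tnnt3 and Pvalb at 0. The part of these cell types in the values of Cebpb, Lrrc10, Fabp4 and Slc4a2 was not tested, and in bulk tissue fewer cells of a type and less RNA per cell cannot be told apart.

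**Figure D5:**
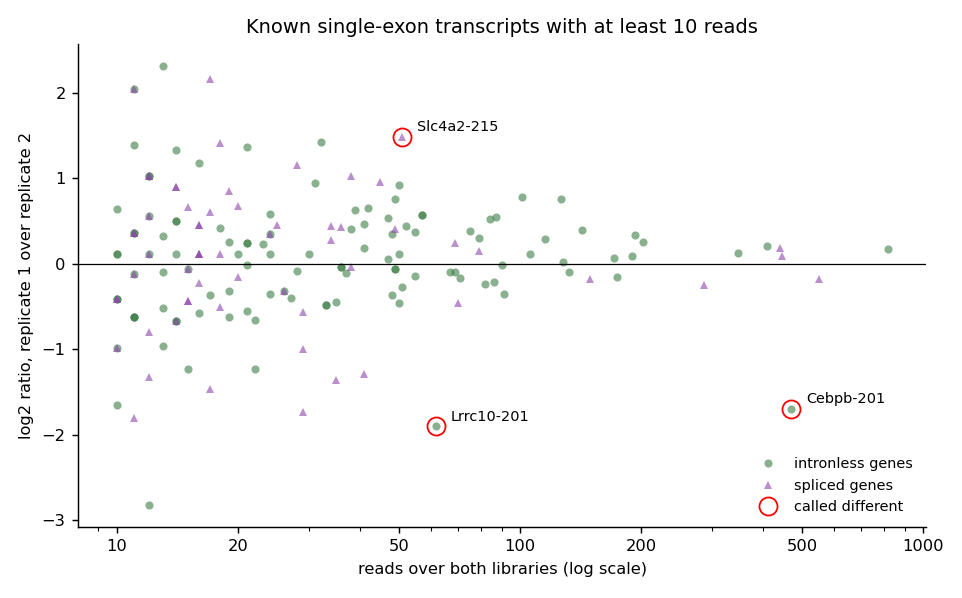
Log2 ratio of replicate 1 over replicate 2 against reads over both libraries (log axis) for the 175 known single-exon transcripts with at least 10 reads, circles for intronless and triangles for spliced genes. Red rings mark the 3 called transcripts, Slc4a2-215 above 0 and Cebpb-201 and Lrrc10-201 below it, while most others scatter around 0 with a spread that widens at low reads.

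Members spanned a wide range of lengths. Of the members that reached 5 reads in both libraries, the longest were Paqr9-201 at 8367 bases with 32 reads in replicate 1 and 37 in replicate 2, Purb-201 at 8319 with 13 and 20, Fem1a-201 at 6801, Atp5l-204 at 6310 and Pds5a-208 at 6051 with 7 and 9. Purb encodes a single-stranded nucleic acid binding protein that represses muscle genes. The shortest were Rps27rt-201 at 374 bases, Gm11273-201 at 390, Gm7075-201 at 425 with 11 and 15 reads, Gm2000-201 at 445 with 36 and 46, and Hist1h4h-201 at 470. Of these, 4 of 5 are near-identical copies of spliced genes (Rps27, Cox5b, Rnf7 and Rpl35), while Hist1h4h is not.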

How the data were processed

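Long reads of cDNA were measured in 2 libraries of 1 group, mouse heart. The authors deposited raw counts of reads per transcript model, with each model's exon number and length; per the file headers and labels' protocols, the build is mm10, the annotation GENCODE M21, and models were named by TALON. Each library was annotated separately, and models at 0 reads are not listed. The sources used here do not name the aligner, versions or read filters.

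From these counts, CPM was computed with TMM factors (edgeR 4.0.16, R 4.3.3) over mouse reads, which leaves out spike-in reads. Depth was 630211 reads in replicate 1 and 664319 in replicate 2. Spliced status, exons and gene types came from the deposited models, which had the same exons as GENCODE M21 for every known transcript. Sequences came from the GENCODE M21 transcript file, and near-identical copies (at least 95% identity over at least 80% of length) from BLAST 2.17.0. With 1 group, edgeR's quasi-likelihood test has no contrast to fit, so libraries were compared with exact binomial tests for transcripts and genes with at least 10 reads and with Fisher's exact test for shares, where the gene reached 10 reads in both libraries, at an adjusted p of 0.05 (scipy 1.17.1). Counting code was tested on simulated data. Alternatives were DESeq2 1.42.0 size factors, total counts, other minimums and other bases.

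The members, lists and rules were chosen with earlier results of these data known. Named members are the 20 most abundant of each kind, those called in any test, up to 5 per list, intronless genes with the lowest and highest known shares, the 5 longest and 5 shortest, and the 10 with the largest share of a spliced gene. Not every gene the rule names is described.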

Additional observations from a re-analysis of the deposited data

How the results depend on the processing

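The share of protein-coding reads in known single-exon transcripts, 0.955%, was 0.868% of all mouse reads and 1.40% of reads of known protein-coding transcripts, and 0.710% without members that have a near-identical match, an alternative chosen after seeing the data; leaving out a library gave 0.948% to 0.962%. The share of intronless reads in known transcripts, 99.6%, was 99.4% where intronless was judged on coding transcripts alone and 100% in genes without a new model of 2 or more exons, which follows from how those genes are chosen. For spliced genes, 17.6% became 22.6% of known reads alone and 15.1% without those with a near-identical match. Of the 336 transcripts listed in both libraries, 147 had at least 5 reads in each. Called single-exon transcripts numbered 2 to 4 over the alternatives: Slc4a2-215 was lost with DESeq2 size factors and with no minimum, Cited4-201 was gained at 50 reads, and the 2 called intronless genes stayed at 2 under the 7 settings tried. In single members, 27 values kept direction and side of the threshold and 2 did not. No paired analysis was possible because there is 1 group. Depth limits low members: 67 intronless members and 134 of spliced genes rest on 1 read.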
